A study of Mus musculus with 360 samples.

Results

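The 10 genes described here serve the endoplasmic reticulum (ER), the compartment in which a bone-forming cell folds the collagen and other proteins that it secretes. They were chosen by name from the 24015 genes of the count tables and fall into 2 sets: the transcription factors Creb3l1, Xbp1, Atf4 and Ddit3, and the ER-resident chaperones and disulfide isomerases Hspa5, Hsp90b1, Calr, Sdf2l1, Pdia4 and Pdia6. Their reads were followed in single CD51+;CD200+ cells, a sorted population that the study uses as skeletal stem and progenitor cells and from which cells with CD45, Ter119, Tie2, CD105, 6C3, Thy1.2 or Thy1.1 had been gated out. All cells came from wild-type CD-1 mice at postnatal day 3, with no treatment, and were taken from the sagittal (SAG), posterior frontal (PF) and coronal (COR) sutures, the fibrous joints of the skull vault, or from the tibial growth plate (GP), the cartilage from which the long bone lengthens. The suture tissue was a complex that held bone fronts and mesenchyme, with the dura mater below and the periosteum above. Of 360 cells deposited, 325 passed a minimum of 500 detected genes and 10000 reads and were used. They were 87 PF, 86 SAG, 74 COR and 78 GP cells, each tissue on 2 plates. The question asked was how the ER genes differed between the sutures and the growth plate, and how they followed the reads of Col1a1, the main collagen chain of bone, from cell to cell.

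When unfolded protein builds up in the ER, sensors in its membrane start the unfolded protein response. Ern1 splices the Xbp1 transcript, Eif2ak3 lowers translation and by this raises Atf4 and then Ddit3, and Atf6 is cut to free a transcription factor. Creb3l1 is a relative of Atf6 that is known for its role in osteoblasts, where it is needed for type I collagen in bone. Hspa5 is the central ER chaperone and Hsp90b1 its partner of the Hsp90 family, Calr holds glycoproteins while they fold, Sdf2l1 assists the Hspa5 system, and Pdia4 and Pdia6 form and reshuffle disulfide bonds. Gene-level read counts do not tell spliced from unspliced Xbp1, and they carry no measure of the proteins.

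The sequences that mark the 2 sets are the ends of the coding regions, because ER-resident soluble proteins carry a retrieval signal of 4 residues (KDEL or a close variant) at their end. In the 10 lines that follow, each sequence is the end of the longest coding transcript in the GENCODE annotation of mm9, written 5′ to 3′, with the last 4 codons in capitals before the stop codon.
Hspa5: acatcagaaAAAGATGAGTTGtag
Hsp90b1: tctacagagAAGGATGAATTGtaa
Calr: ggccaagccAAGGATGAGCTGtag
Sdf2l1: tccacgggtCACGATGAACTCtga
Pdia4: agcaggaccAAGGAAGAGCTTtaa
Pdia6: gacctggagAAGGATGAGTTGtga
Creb3l1: aacaccaccATCAAACTCTCCtag
Xbp1: ttcccccagCTGATTAGTGTCtaa
Atf4: agggggaagAAGAGAGTTCCGtaa
Ddit3: atggtcagcCTGCACCAAGCAtga
The last 4 codons spelled a retrieval signal (K, H or R, then D or E, then E and L) in 6 of the 6 chaperones and isomerases and in 0 of the 4 factors. Over all genes with a complete coding region it was spelled in 45 of 21370, or 0.211%. On mm9, Creb3l1 lies at chr2:91822485-91864659 on the minus strand and Hspa5 at chr2:34627490-34632051 on the plus strand of the same chromosome.

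A second sequence feature lay in the promoters, where the bases CCAAT and CCACG with 9 bases between them form the ER stress response element. RefSeq promoters on GRCm38.p6 (250 bases before to 50 after the start) matched 9 of the 10 genes, all but Creb3l1. The pair was found, on either strand, in 4 of these 9, against 39 of all 32851 promoters (0.119%). In the 5 stretches that follow, all of them before the start of the gene, the pair is in capitals with 20 bases on each side, and each is written in the direction of the gene.
Hspa5 (chr2:34772005-34772063, plus strand): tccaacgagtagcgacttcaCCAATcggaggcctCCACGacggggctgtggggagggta
Hsp90b1 (chr10:86705618-86705676, minus strand): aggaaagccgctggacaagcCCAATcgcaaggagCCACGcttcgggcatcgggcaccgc
Hsp90b1 (chr10:86705513-86705571, minus strand): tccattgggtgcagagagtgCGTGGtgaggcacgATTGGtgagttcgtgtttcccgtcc
Calr (chr8:84847055-84847113, minus strand): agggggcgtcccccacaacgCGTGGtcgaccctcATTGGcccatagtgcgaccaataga
Pdia6 (chr12:17266471-17266529, plus strand): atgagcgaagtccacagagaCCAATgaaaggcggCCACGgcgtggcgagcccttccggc
In Hspa5 the pair began 65 bases before the start and in Pdia6 98 bases before it. Hsp90b1 held it at 212 bases on the gene's own strand and at 107 bases on the other strand, and Calr at 162 bases on the other strand. The motifs TGACGTGG, TGACGTCA and TGATGCAAT were in 0 of the 9 promoters and in 0.676%, 1.79% and 0.192% of all promoters. A match is a description of these letters and not a measured binding site.

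The reads of Rn45s, the precursor of ribosomal RNA, were left out of every total, and a level is given in CPM, the reads of a gene per 1000000 remaining reads of the same cells. No animal was named for any cell, so each tissue counts as 1 sample and no test between tissues was possible. The 2 plates of a tissue are the only spread, and whether they hold different animals is not known. A difference was called where the levels of 2 tissues, after adding 1 CPM, differed at least 2-fold. The sign also had to be the same in all 4 pairings of their plates. With a plate left out fewer pairings remained, so this rule was easier to meet. Between PF and SAG 35.3% of genes had the same sign throughout with both SAG plates, and 69.6% with SAG plate 1 alone. SAG plate 2 stood apart: Rn45s held 86.8% of its reads, against 20.2% to 30.96% on the other 7 plates, and its cells had a median of 875 genes, against 2112 to 3867. Values of the 10 genes in SAG are therefore given by plate or with plate 1 beside both plates. For 1 cell of SAG the title and the description named different sutures. The osteoblast markers summed to between 73316 CPM in SAG and 208626 CPM in PF, with reads of 12 of 12 genes in every tissue. The 11 chondrocyte markers summed to 17176 CPM in SAG and 5621 CPM in GP, of which 64.5% came from 1 cell, against 402 CPM in PF and 296 CPM in COR. The 10 genes known to rise during dissociation summed to 17991 CPM in SAG and to between 530 and 2178 CPM elsewhere. The 5 osteoclast markers summed to 4298 CPM in SAG and to between 563 and 959 CPM elsewhere, with Ocstamp and Dcstamp at 0 in every tissue. They were at 7759 and 1997 CPM on SAG plates 1 and 2. On SAG plate 1 the highest cell of each list gave 47.4% of the osteoblast, 42.4% of the chondrocyte and 48.8% of the osteoclast reads. The endothelial markers stayed at or below 16.4 CPM and the haematopoietic markers at or below 16.6 CPM in every tissue, with 0 reads of 5 endothelial genes in GP.

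Together the 10 genes took 0.630% of the PF reads, 0.567% of the COR reads, 0.691% of the GP reads and 0.308% of the SAG reads. On SAG plate 1 the share was 0.570% and on plate 2 0.134%, so plate 1 lay beside COR. Most of this was the chaperones and isomerases, with 5293 CPM in PF, 4819 CPM in COR and 6160 CPM in GP. On SAG plate 1 they stood at 5282 CPM, within the range of 4626 to 6482 CPM of the 6 plates of the other tissues, and on SAG plate 2 at 1099 CPM. The 4 factors summed to 1005 CPM in PF, 846 CPM in COR and 755 CPM in GP, and to 417 and 243 CPM on SAG plates 1 and 2. A median cell had reads of 7 of the 10 genes in PF, 8 in COR and 7 in GP, and of 6 on SAG plate 1 and 2 on SAG plate 2.

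**Figure D1:**
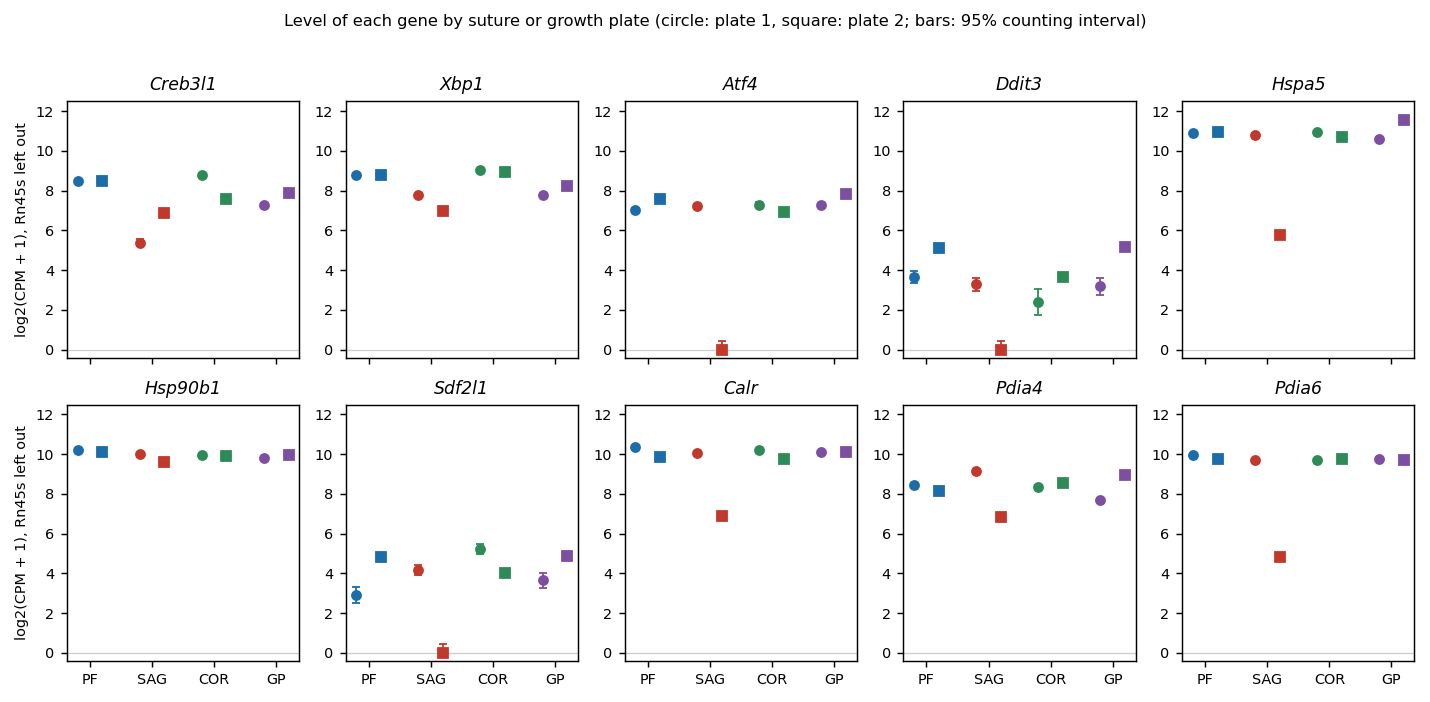
Level of each of the 10 genes as log2(CPM + 1) on the 8 plates, with circles for plate 1, squares for plate 2 and bars for 95% Poisson intervals that cover counting error only. The chaperone and isomerase points of SAG plate 2 fall below the rest for Hspa5, Calr, Pdia4 and Pdia6, while Creb3l1 is low on both SAG plates.

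Creb3l1 was read at 359 and 354 CPM on the PF plates, at 437 and 189 CPM on the COR plates, at 156 and 239 CPM on the GP plates, and at 40.6 and 118 CPM on the SAG plates. Both SAG plates lay below the 6 others, and PF lay above GP on every plate, at 1.58-fold. COR plate 1 was the highest and COR plate 2 stood between the GP plates, so the order of COR and GP was not settled. A read of Creb3l1 was found in 68.97% of PF cells (60 of 87, 95% interval 58.1% to 78.5%), in 78.4% of COR cells, in 53.8% of GP cells (42.2% to 65.2%) and in 29.1% of SAG cells, which were 6 of 30 on plate 1 and 19 of 56 on plate 2. On SAG plate 1, 63.1% of the Creb3l1 reads came from 1 cell, and on plate 2 39.4% did.

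Xbp1 was read at 441 and 440.3 CPM on the PF plates. On the COR plates it stood at 520.4 and 494 CPM, on the GP plates at 221 and 300.2 CPM, and on the SAG plates at 217 and 124 CPM. COR lay above PF on every plate comparison by 1.13-fold, PF above GP by 1.54-fold and COR above GP by 1.73-fold, all under the 2-fold limit. It was found in 86.5% of COR cells, 70.5% of GP cells, 66.7% of PF cells and 34.9% of SAG cells (15 of 30 on plate 1 and 15 of 56 on plate 2), so COR was highest and SAG lowest on both measures.

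Atf4 was read at 130 and 192 CPM in PF, 155 and 121 CPM in COR, 154 and 226 CPM in GP, and 151 CPM on SAG plate 1. On SAG plate 2 it had 0 reads in 56 cells, which allows at most 0.290 CPM (3 reads of the plate's total). PF, COR, GP and SAG plate 1 overlapped. Ddit3, the factor known for the late and pro-apoptotic arm of the response, was the lowest of the 4 factors, also per kilobase. It stood between 4.32 and 35.4 CPM on the 6 plates outside SAG, and at 8.73 and 0 CPM on SAG plates 1 and 2. It was found in 25.3% of PF cells, 17.6% of COR cells, 17.9% of GP cells and 6.98% of SAG cells. The SAG cells with a read were 6 of 30 on plate 1, within the range of the shares of the other tissues, and 0 of 56 on plate 2. Its levels rested on few cells: the highest cell gave 62.9% of all Ddit3 reads in GP and 31.7% in COR.

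Hspa5 was read at 1932 and 1980 CPM on the PF plates, 1994 and 1685 CPM on the COR plates, 1550 and 3013 CPM on the GP plates, and 1763 CPM on SAG plate 1. On SAG plate 2 it stood at 54.2 CPM and in 14.3% of cells, against 96.7% of cells on plate 1. GP plate 2 was the highest and SAG plate 2 the lowest. A single cell, described further on, held 38.6% of the GP reads of Hspa5, and without it GP stood at 1737 CPM. Per kilobase of exon Hspa5 ranged from 441 to 858 CPM over the 6 plates outside SAG, Calr from 299 to 452 CPM, Hsp90b1 from 225 to 298 CPM and Pdia6 from 224 to 263 CPM, while Creb3l1 ranged from 59.95 to 168 CPM and Ddit3 from 2.52 to 20.7 CPM. Hspa5 thus had the highest level per kilobase of the 10 in PF, COR and GP. It was also highest on SAG plate 1, at 502 CPM per kilobase, with Hsp90b1 at 252. On SAG plate 2 Hspa5 was at 15.4 and Hsp90b1 at 195, and over both SAG plates they were at 210 and 218. Col1a1 ranged from 7490 to 17145 CPM on that scale over the 6 plates outside SAG.

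Over the 6 plates outside SAG, Hsp90b1 and Pdia6 varied least of the 10 from plate to plate. Hsp90b1 was at 1202 and 1089 CPM in PF, 994 and 974 CPM in COR, 906 and 991 CPM in GP, and 1016 and 784 CPM in SAG, and a read of it was found in 42 of the 56 cells of SAG plate 2. The 6 plates outside SAG spanned 1.33-fold for Hsp90b1 and 1.17-fold for Pdia6. Pdia6 stood at 985 and 873 CPM in PF, 844 and 854 CPM in COR, 851 and 839 CPM in GP, and 844 CPM on SAG plate 1. On SAG plate 2 it was at 26.9 CPM, and 99.6% of these reads came from 1 of 56 cells.

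Calr was found at 1301 and 926 CPM in PF, 1167 and 861 CPM in COR, 1100 and 1120 CPM in GP, and 1070 and 118 CPM in SAG. Pdia4 was found at 350.3 and 280.1 CPM in PF, 328 and 368 CPM in COR, 207 and 491 CPM in GP, and 571 and 115 CPM in SAG, which made SAG plate 1 its highest plate. It was read in 85.1% of COR cells (74.96% to 92.3%) and in 57.5% of PF cells (46.4% to 68.01%), although its levels in these tissues overlapped. Sdf2l1 was rare, at 6.59 and 27.6 CPM in PF, 37.1 and 15.0003 CPM in COR, 11.5 and 28.2 CPM in GP, and 17.3 and 0 CPM in SAG. It was found in 16.1% to 24.4% of the cells of PF, COR and GP, in 4 of 30 cells on SAG plate 1 and in 0 of 56 on plate 2. After each cell was thinned to 100000 reads other than Rn45s Creb3l1 was found in 68.6% of 70 PF cells, 76.1% of 71 COR cells, 59.7% of 67 GP cells and 26.25% of 80 SAG cells deep enough to be thinned, with 12% of 25 on SAG plate 1.

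No member was called among PF, COR and GP. Between PF and COR 0 of 10 were called, where 11.8% of 9515 genes were. Between PF and GP it was 0 of 10 against 16.4%, and between COR and GP 0 of 10 against 13.4%. The median log2 ratio of the 10 genes was 0.19 for PF over COR (all genes 0.03), -0.07 for PF over GP (all genes 0.10) and -0.30 for COR over GP (all genes 0.07). Ddit3 stood 2.57-fold higher in PF than in COR, but PF plate 1 and COR plate 2 were both at 11.7 CPM. Leaving out 1 plate raised the share of all genes called to between 18.5% and 32.2% for PF and COR, 23.3% and 36.2% for PF and GP, and 19.9% and 33.7% for COR and GP. In these settings Ddit3 was called between PF and COR without PF plate 1 or COR plate 2, Sdf2l1 between PF and COR and between PF and GP without PF plate 2, Creb3l1 and Ddit3 between PF and GP without GP plate 2, Xbp1 between COR and GP without GP plate 2, and Ddit3 between COR and GP without COR plate 2 or GP plate 1. Ddit3 was also called between PF and COR when Col1a1 was left out of the totals or other scaling factors were used.

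SAG was lower for some of the 10 genes. Against PF, 5 of 10 were called lower in SAG (Creb3l1, Xbp1, Ddit3, Hspa5 and Pdia6), where 16.9% of all genes were. Against COR 3 of 10 were lower in SAG (Creb3l1, Xbp1 and Pdia6; 18.9% of all genes), and against GP 3 of 10 (Creb3l1, Atf4 and Calr; 18.3%). With plate 1 as the only SAG plate, Creb3l1, Xbp1 and Ddit3 were lower than in PF (16.1% of all genes), Creb3l1 and Xbp1 lower than in COR (15.5%), and Creb3l1 lower than in GP (16.4%). Creb3l1 was lower in SAG than in PF by 4.03-fold with both plates and by 8.56-fold with plate 1, lower than in COR by 2.44-fold and 5.17-fold, and lower than in GP by 2.55-fold and 5.42-fold. The calls for Hspa5, Pdia6, Atf4 and Calr were lost without SAG plate 2. On plate 1 Hspa5, Hsp90b1, Calr and Pdia6 lay within the range of the 6 plates of the other tissues. Col1a1 was lower in SAG too, by 4.23-fold against PF with both plates and by 2.83-fold with plate 1. With plate 2 as the only SAG plate, Creb3l1 was not called against COR or GP. Without GP plate 2 Creb3l1 was not called against GP. The chondrocyte, osteoclast and dissociation markers, the share of Rn45s and the number of genes per cell all moved with SAG, and their part in these differences was not tested. The chondrocyte markers were at 21695 and 14171 CPM and the dissociation markers at 13367 and 21066 CPM on SAG plates 1 and 2.

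In SAG, where Creb3l1 was lowest, a relative of it was highest. Creb3l2, known for its role in cartilage secretion, stood at 108 and 553 CPM on the SAG plates and at 9.72 to 35.2 CPM on the 6 others. It was found in 53.5% of SAG cells and in 21.8% to 32.4% of the cells of the other tissues. SAG was thus the lowest tissue for Creb3l1 and the highest for Creb3l2. The cartilage marker Col2a1 was at 8092 CPM in SAG (9413 and 7214 CPM on its plates), 2349 CPM in GP, 47.5 CPM in PF and 2.06 CPM in COR. Creb3l2 was at 375 CPM in SAG, 30.8 CPM in GP, 26.9 CPM in PF and 23.6 CPM in COR. Whether the levels of Creb3l1, Creb3l2 and Col2a1 are related was not tested. Creb3, a widely expressed member of the family that was looked up after these values had been seen, was at 53.8 CPM in SAG (92.5 and 28.1 CPM on its plates) and between 117 and 210.4 CPM in the other tissues.

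From cell to cell, the Creb3l1 level went up with that of Col1a1. The median correlation of the 6 chaperones and isomerases lay near that of all genes, with single members above and below it. The Spearman correlation (rho) over cells of the Creb3l1 level with the Col1a1 level was 0.46 over the 87 PF cells, 0.36 over the 86 SAG cells, 0.32 over the 74 COR cells and 0.67 over the 78 GP cells. It was above 0 on 8 of 8 plates, from 0.27 to 0.71, with a median of 0.47. In GP, 7 of 5424 genes with a read in at least 20% of cells had a rho at or above that of Creb3l1, itself among them. In PF 17 of 4424 had, in SAG 25 of 2517 and in COR 69 of 6286. On single plates the rank was less uniform: 1353 of 6305 genes were at or above it on COR plate 1 and 474 of 5545 on SAG plate 1, against 6 of 5507 on GP plate 2. These values are descriptions, since cells of a plate share a library preparation and differ in depth, and no p is given.

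**Figure D2:**
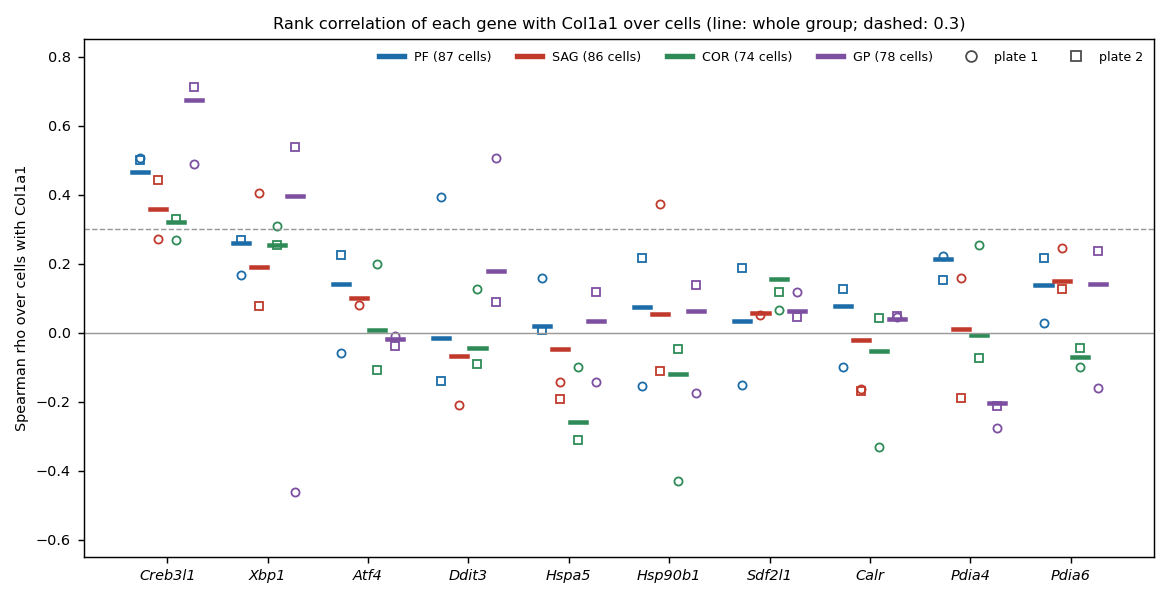
Spearman correlation of each gene with Col1a1 over the cells of a tissue (short lines) and of each plate (circles for plate 1, squares for plate 2). Creb3l1 lies above 0 on all 8 plates, Xbp1 on 7 of 8, and the 6 chaperones and isomerases scatter about 0.

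Xbp1 came next, with rho of 0.40 in GP, 0.26 in PF, 0.25 in COR and 0.19 in SAG. It was above 0 on 7 of 8 plates, the exception being GP plate 1 at -0.46 over 20 cells. The 6 chaperones and isomerases had median rho of 0.08 in PF (all genes 0.07), 0.03 in SAG (all genes 0.02), -0.06 in COR (all genes -0.01) and 0.05 in GP (all genes 0.05). Hspa5 ranged from -0.31 to 0.16 over the plates and Hsp90b1 from -0.43 to 0.37. Of the members read in at least 20% of cells, 1 of 9 reached a rho of 0.3 in PF (4.81% of all such genes), 1 of 7 in SAG (2.03%), 1 of 9 in COR (1.53%) and 2 of 9 in GP (6.88%). The member above the limit was Creb3l1 in each tissue, with Xbp1 as the other one in GP. On SAG plate 1 alone it was 2 of 9, Xbp1 at 0.41 and Hsp90b1 at 0.37, against 6.56% of all genes, with Creb3l1 at 0.27.

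**Figure D3:**
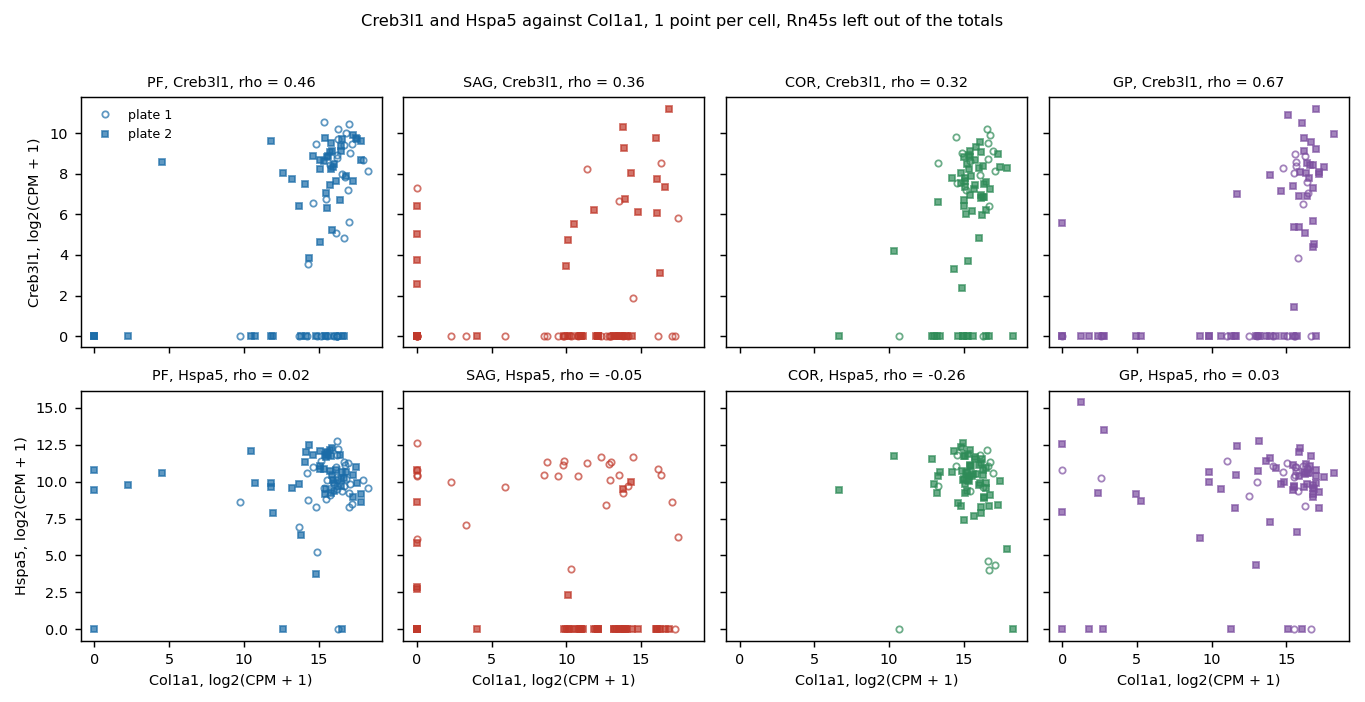
Creb3l1 (upper row) and Hspa5 (lower row) against Col1a1 in every cell, both as log2(CPM + 1), by tissue, with open circles for plate 1 and filled squares for plate 2. In GP, 32 of the 37 cells with more Col1a1 have a Creb3l1 read and 9 of the 37 with less, while Hspa5 is spread over all Col1a1 levels.

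The cells with a Col1a1 read were then split at the median of Col1a1. In GP, Creb3l1 was read in 9 of the 37 cells with less Col1a1 (24.3%) and in 32 of the 37 cells with more (86.5%), at means of 87.3 and 352 CPM. Hspa5 was read in 89.2% and 91.9% of the same cells, at medians of 1013 and 1331 CPM. In COR the Hspa5 medians were 1518 CPM in the cells with less Col1a1 and 974 CPM in those with more. In PF the Creb3l1 share went from 61.9% to 80.95%, in COR from 70.3% to 86.5% and in SAG from 16.1% to 48.4%. On SAG plate 1 a Creb3l1 read was found in 1 of the 13 cells with less Col1a1 and in 4 of the 12 cells with more. Depth went along with Col1a1 in part: the median number of genes per cell in the cells with less and with more Col1a1 was 2855 and 3406 in GP, 2198 and 2747 in PF, and 3290 and 3555 in COR, while in SAG it was 1235 and 951. Of the 3 PF cells with no Col1a1 read, 0 had a Creb3l1 read and 3 had a Pdia6 read. In the 24 SAG cells with none, Creb3l1 was found in 20.8%.

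Among themselves, the chaperones and isomerases moved together over cells. The 15 pairs within this set had a median within-plate rho of 0.37, from 0.13 for Sdf2l1 with Pdia4 to 0.53 for Hspa5 with Hsp90b1 and Hspa5 with Pdia6. Calr with Pdia6 was at 0.46 and Hspa5 with Calr at 0.48. The 24 pairs of a factor with a chaperone or isomerase had a median of 0.08, and the 6 pairs of factors also 0.08. The highest of these were Creb3l1 with Xbp1 at 0.33 and Xbp1 with Pdia6 at 0.32. With the other chaperones and isomerases Xbp1 ran from 0.14 for Sdf2l1 to 0.23 for Calr. Atf4 with Ddit3, which act in one branch of the response, were at 0.13, with Ddit3 at 0 reads in most cells. Sdf2l1 and Ddit3 were read in few cells, so weak values for them say little. Pairs over all genes were not computed and cells of a plate differ in depth, so these medians have no background beside them. Values above 0 were common: Col1a1, at 0.17 with the mean of the 10 members, was only at rank 1898 of 4826 genes.

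**Figure D4:**
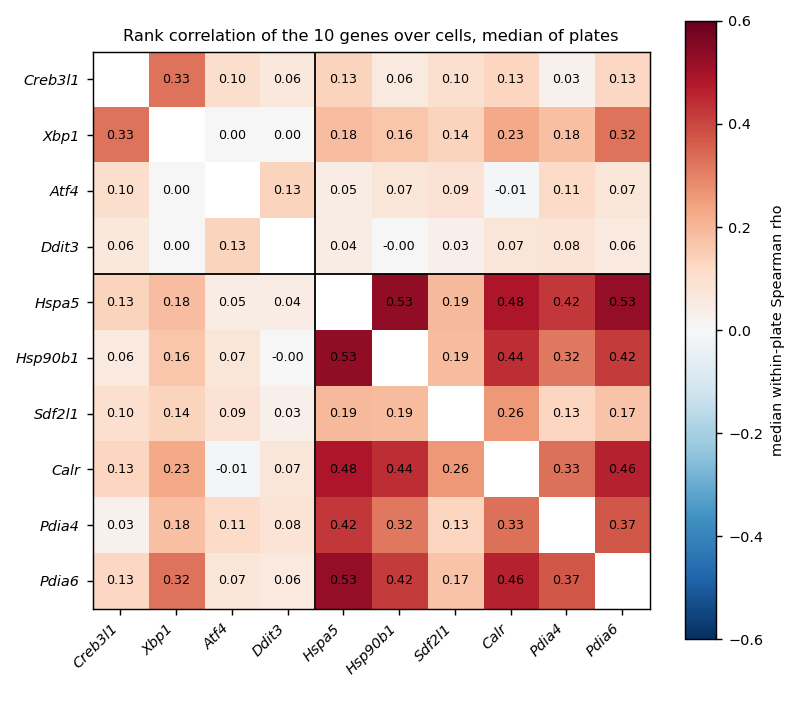
Median over plates of the within-plate Spearman correlation for each of the 45 pairs of the 10 genes, red above 0 and blue below, with black lines between the 4 factors and the 6 chaperones and isomerases. The block of chaperones and isomerases is the redder one, at 0.13 to 0.53, and most values beside it lie near 0.

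The genes most like the mean of the 10 members were, in order, Stt3a (0.52), P4hb (0.51), Surf4, Rpn1, Pdia3, Tmem119, Fkbp10, Manf, Kdelr3 and Txndc5 (0.45), by median within-plate rho over 8 plates among 4826 genes with a read in at least 20% of cells. Stt3a and Rpn1 belong to the enzyme that attaches sugar chains to nascent proteins, P4hb and Pdia3 are disulfide isomerases, Kdelr3 is a receptor for the retrieval signal, and Tmem119 is a membrane protein known from osteoblasts. Col1a1 was at rank 1898 of 4826. For 2 members the nearest genes were looked up after their values had been seen. Creb3l1 was nearest to Rcn3 (0.49), Fkbp11 (0.48), Col1a1 (0.47), Cgref1 and Cpz, with the collagen crosslinking enzyme Lox at rank 7. Hspa5 was nearest to Hsp90b1, Pdia6, Pdia3, Manf and Calr, and Col1a1 was at rank 4817 of 4833 there, at -0.12.

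The other genes of the pathway were followed in 5 lists of 74 genes in all. Between PF and COR, 2 of the 64 tested were called higher in PF and 1 higher in COR, where 11.8% of all genes were called in either direction. The largest of these were Psat1, a serine synthesis enzyme, at 138 CPM in PF and 52.7 CPM in COR, and Mbtps2. Mbtps2, the protease that frees Atf6, was at 11.3 CPM in PF, with 45.5% of these reads from 1 cell, and at 24.7 CPM in COR. Between PF and GP 3 of 69 were called in each direction (16.4% of all genes in both), with the isomerase Pdia5 at 154 CPM in PF and 44.2 CPM in GP. Between COR and GP 2 of 69 were called in each direction (13.4% of all genes in both). In these tissues Slc7a5, an amino acid transporter, was at 14.4 and 4.95 CPM, with 60.3% of its GP reads from 1 cell. Dnajb9, a cochaperone of Hspa5, was at 70.2 CPM in COR and 215 CPM in GP, and Slc7a11, the cystine transporter, at 0.627 CPM in PF and 23.4 CPM in GP, but 56.7% and 95.6% of their GP reads came from 1 cell.

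With both SAG plates, 28 of 66 pathway genes were lower in SAG than in PF (16.9% of all genes) and 3 higher (13.2%). Against COR 26 of 66 were lower (18.9%) and 3 higher (13.5%), and against GP 22 of 69 were lower (18.3%) and 3 higher (13.3%). With plate 1 alone, 15 of 66 were lower than in PF (16.1%) and 4 higher (17.2%), 14 of 66 lower than in COR (15.5%) and 4 higher (16.5%), and 12 of 68 lower than in GP (16.4%) and 2 higher (17.6%). The count against GP on plate 1 was thus near the share of all genes. Asns, asparagine synthetase and a known target of Atf4, was at 2.44 CPM in SAG, all from 1 cell, against 58.8 CPM in PF, 75.6 CPM in COR and 64.8 CPM in GP. On SAG plate 1 Hyou1, an ER chaperone, was at 0.145 CPM against 16.9 to 26.97 CPM in the other tissues. That value lies below the 0.436 CPM that 3 reads make on this plate. It describes plate 1 only: SAG plate 2 had Hyou1 reads too, and 1 cell gave 51.3% of the reads of both plates. Atf3 was at 192 CPM in SAG and 12.2 CPM in PF, with 77.4% of the SAG reads from 1 cell.

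Of the 52 pathway genes read in at least 20% of the cells of PF, COR and GP, those with the highest median rho with Col1a1 were Fkbp10 (0.55), a collagen chaperone, Kdelr3 (0.43), and Sec24d (0.42), a coat protein of the vesicles that carry collagen out of the ER. The lowest were Spcs1 (-0.19), a subunit of the signal peptidase, Vcp (-0.15), which extracts proteins for degradation, and Canx (-0.10), the membrane-bound relative of Calr. In GP 9 of 19 translocation and export genes reached 0.3, and 0 of 10 detected targets of Atf4 and Ddit3 did, where 6.88% of all genes did. In PF these were 6 of 19 and 0 of 6, with 4.81% of all genes. In COR they were 2 of 19 and 0 of 11, with 1.53% of all genes. In SAG 0 of 16 translocation and export genes reached it, with 2.03% of all genes. Folding and disulfide enzymes reached it in 4 of 16 in GP, 7 of 15 in PF, 3 of 17 in COR and 1 of 11 in SAG. Degradation genes did in 1 of 8 in GP and 0 of 9 in PF, and sensors and related factors in 1 of 5 and 1 of 4. Neither of these lists had any in COR or SAG. With so few targets of Atf4 and Ddit3 detected, 0 is near the share of all genes.

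One cell of GP plate 2 carried the highest Hspa5 level of all 325 cells, and it was examined after this value had been seen. Hspa5 took 4.33% of its reads other than Rn45s, 43284 CPM, where the other 77 GP cells had a median of 1199 CPM and a highest value of 11775 CPM. Ddit3 stood at 784 CPM, against 0 reads in all but 13 of the other GP cells and a highest value of 359 CPM. Atf4 was at 1483 CPM against a median of 106 CPM. Over all 325 cells this cell was at rank 3 for both, and PF reached 1276 CPM of Ddit3 and 3946 CPM of Atf4 in its highest cells. Xbp1 was at 1069 CPM, the second highest of the 78. The other chaperones and isomerases lay within the range of the other GP cells: counted from the highest, Pdia6 was at rank 8 of 78, Hsp90b1 at 16, Pdia4 at 18 and Calr at 46, and Sdf2l1 and Creb3l1 had 0 reads. The cell had 1 read of Col1a1 and 0 of Col1a2, where the other GP cells had medians of 45782 and 40018 CPM.

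**Figure D5:**
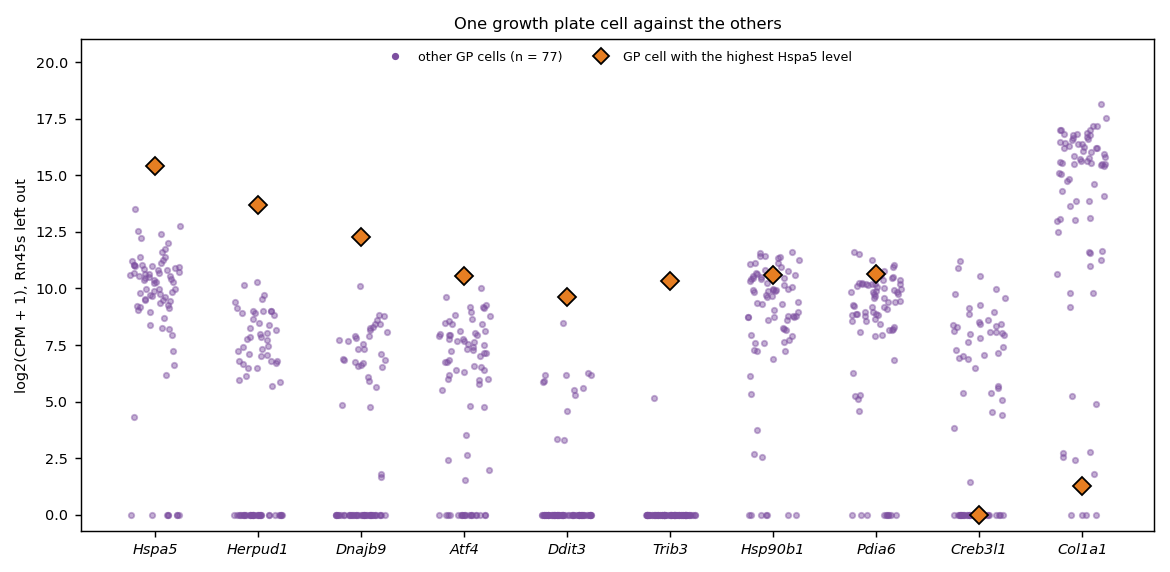
Levels of 10 genes as log2(CPM + 1) in the 78 GP cells, with the cell of highest Hspa5 as a diamond and the 77 others as points spread sideways for sight. The diamond lies above all points for Hspa5, Herpud1, Dnajb9, Atf4, Ddit3 and Trib3, within them for Hsp90b1 and Pdia6, at 0 for Creb3l1 and near 0 for Col1a1.

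In the same cell, 10 of the 62 pathway genes with a read were at their highest of the 78 GP cells (16.1%), among them 6 of 17 targets of Atf4 and Ddit3, and 0 of 19 translocation and export genes. Over all 5595 genes with a read in the cell, the largest number of any GP cell, the share was 5.43%. Herpud1, a degradation factor of the ER membrane, was at 13356 CPM against a highest value of 1241 CPM elsewhere in GP. Dnajb9 was at 4954 CPM, Trib3, a kinase-like target of Ddit3, at 1269 CPM against at most 34.98 CPM, and Chac1 at 1192 CPM with 0 reads in the 77 other cells. Genes of the response to oxidants were high as well: Hmox1 at 28677 CPM, Srxn1 at 10549 CPM, Txnrd1 at 8036 CPM and Nqo1 at 6847 CPM, with medians of 0 CPM in the other GP cells. Left out, it moved Hspa5 in GP from 2759 to 1737 CPM, Ddit3 from 30.7 to 11.7 CPM, Dnajb9 from 215 to 95.3 CPM and Slc7a11 from 23.4 to 1.04 CPM, and the number of members called stayed at 0 of 10 against PF and COR. This is 1 cell, and no other cell of the series had as high a level of Hspa5, Herpud1, Dnajb9, Manf, Chac1 or Slc7a11.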

How the data were processed

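Read counts per gene and cell were deposited by the authors as 8 tables of raw counts, 1 for each of 2 plates of the 4 tissues. Cells had been sorted singly into wells and amplified by SMART-seq2, a full-length method that attaches no molecular identifiers, and made into Nextera XT libraries, so PCR copies are counted as reads. Labels and paper name different instruments and RNA preparation. The submitters' processing notes name STAR 2.5.3a, HTSeq, Seurat 2.3.0, R 3.4.4 and mm9. The annotation and the use of strand are not given in the sources used here, so reads of overlapping genes cannot be told apart. 0 columns were left without a cell, and no 2 cells held identical counts.

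Cells needed 500 genes and 10000 reads (325 kept, 35 left out), which gave medians of 125830 to 511698 reads per cell without Rn45s on the 8 plates. No doublet caller was run on singly sorted cells. The doubtful cell was counted as SAG. Reads were summed over cells and divided by the total without Rn45s. Genes entered the background with at least 10 CPM in 1 of the 2 tissues. Intervals (95%, exact Poisson for levels, Clopper-Pearson for shares) and limits for 0 reads (3 reads) cover counting error only. Spearman correlations used log2(CPM + 1). Lengths for levels per kilobase are the exon union of GENCODE on mm9. The ratio and correlation steps were tested on simulated data. Members, gene lists and rules were chosen with earlier results of these data known. Named pathway genes were the 2 with the largest called ratio in each comparison and the 3 highest and 3 lowest in median rho with Col1a1 over PF, COR and GP. Work was done in Python 3.11.15 (pandas 2.3.3, scipy 1.17.1) and R 4.3.3 (edgeR 4.0.16 for scaling factors).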

Additional observations from a re-analysis of the deposited data

Results flagged for a closer look

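The 35 cells left out by the filter on genes and reads, which entered none of the reported comparisons and were added back in 1 alternative, still held reads of the 10 genes. They had 1722 such reads, or 2068 CPM of their reads without Rn45s, in 13 of the 35 cells and over all 10 genes. With no control wells, the level was set against the limit that a count of 0 allows, 3.60 CPM for these cells. In the 325 cells used the 10 genes summed to 5760 CPM. Nothing about the left-out cells was tested further.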

How the results depend on the processing

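Each result was computed again with other totals, scaling factors, filters, weights and with each plate left out. No value that passed the limit for a call changed sign. The number of members called was within 1.5 times of the reported one in 80 of 105 cases. Between PF and COR 1 member (Ddit3) was called with Col1a1 also left out of the total, with TMM factors and with median-of-ratios factors. Between SAG and GP 1 was called with Rn45s in the total and with the stricter filter of 1500 genes and 50000 reads. Under that filter 2 were called between PF and SAG (Creb3l1 and Xbp1). Between SAG and COR 5 were called with means over cells and 5 after thinning. At a limit of 1.5-fold, 2 were called between PF and GP and 1 between COR and GP. With Rn45s in the total the median of all genes moved to 2.20 for PF over SAG. Leaving out 1 plate at a time gave 0 to 1 between PF and COR, 0 to 2 between PF and GP, 0 to 1 between COR and GP, 3 to 9 between PF and SAG, 2 to 8 between SAG and COR and 1 to 8 between SAG and GP, the highest counts against SAG being those without SAG plate 1. The share of all genes called moved with them: 75.1%, 76.4% and 76.4% for PF, COR and GP against SAG without SAG plate 1, and 33.3%, 31.9% and 33.98% without SAG plate 2. Without COR plate 2 the count between SAG and COR was 7 (48.6% of all genes), and without GP plate 1 that between SAG and GP was 6 (43.4%). With all plates these shares were 32.4% and 31.6%. The median rho of the 10 members with Col1a1 was 0.016 in PF given the number of genes per cell. That of the 6 chaperones and isomerases in COR was -0.0173 with Col1a1 out of their total and -0.1358 given the number of genes. On single plates the median over 10 members ran from -0.0459 to 0.095 in COR, -0.0775 to 0.1033 in GP, 0.0921 to 0.202 in PF and -0.1106 to 0.1177 in SAG, and that over the 6 from -0.0993 to -0.0459, -0.152 to 0.0833, -0.0361 to 0.1713 and -0.1697 to 0.1043. The rho of Creb3l1 stayed above 0 in 29 of 29 alternatives, from 0.27 to 0.71. Leaving out the GP cell of highest Hspa5, chosen after seeing the data, changed no count of members called. No paired analysis was possible because the result comes from no test and plate numbers do not pair tissues. Depth limits the low genes most: at the size of SAG plate 2 a gene with 0 reads may stand at up to 0.290 CPM. Each tissue is 1 sample, so animal, plate and tissue cannot be told apart.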
